A study of Mus musculus with 8 samples.

Results

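The Hippo pathway restrains growth through a chain of kinases that ends on a pair of transcriptional coactivators. Described here are 10 of its genes, namely the kinase adaptors Mob1a and Mob1b, the upstream kinases Stk3 and Stk4 (MST2 and MST1) with their scaffold Sav1, the kinases Lats1 and Lats2, the coactivators Yap1 and Wwtr1 (TAZ), and the target gene Ctgf. They were chosen by name, and rows for 10 of 10 were among the 11783 genes of the deposited expression table, with 0 absent. RNA-seq had been made from granulosa cells, which surround and support the oocyte, taken from ovaries of C57BL/6 mice. There were 8 libraries, 4 from postnatal day 1 (PND1) and 4 from postnatal day 4 (PND4). The labels name no mutation, transgene or treatment in either group, and are silent on whether libraries of 1 age stem from different mice. The p-values therefore reflect only how these libraries vary, which may be technical.

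In the pathway as it is generally understood, STK3 and STK4, held by SAV1, phosphorylate the LATS kinases and their MOB1 adaptors. Active LATS kinases phosphorylate YAP1 and TAZ, which then stay in the cytoplasm, and when this brake is released both enter the nucleus and switch on genes through the TEAD DNA-binding factors. Ctgf and Cyr61, which encode secreted matricellular proteins, are the best known of these target genes, and in the ovary loss of Hippo restraint is known to promote follicle growth. Transcript levels do not measure the phosphorylation that carries most of this control.

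Mob1a was the member whose libraries separated by age, with higher values at PND4, but it did not pass the test over all genes. The other 9 members overlapped between ages. In limma, a linear model fitted to log2(FPKM + 1) of all 10756 genes that passed a filter on low values, 0 of 10 members had an adjusted p under 0.05, against 0.00930% of all genes tested. An unadjusted p under 0.05 was had by 1 of 10 members, Mob1a, against 5.90% of all genes. Of the members, 10 of 10 passed the filter on low values, 4 had positive and 6 negative log2 differences (PND4 minus PND1), and their median log2 difference was -0.023. Over all genes tested the median was 0.078, and 60.3% of genes had a positive difference.

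Expression is given as FPKM, a value scaled for transcript length and library size, with read depth unknown. FPKM totals ran from 443333 to 505035 per library, and 222 to 1234 entries of each library read 0, the most in PND1 replicate 1 and PND4 replicate 1. Rows for 12 of 12 granulosa and pregranulosa markers were used, with sums of 611 to 785 FPKM at PND1 and 635 to 764 at PND4, and Foxl2, a transcription factor of granulosa identity, ran from 10.5 to 26.2 FPKM over the 8 libraries. In bulk RNA of this kind, fewer cells of a type and less RNA per cell cannot be told apart.

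The promoter sequences of the adaptor pair are shown because its 2 genes had different values at PND4, and those of the coactivators and of Cyr61 because they hold the short motif of the TEAD factors. They come from RefSeq (GRCm38.p6), which gave a promoter window for 8 of the 10 members, without Stk3 and Ctgf. Each is written 5′ to 3′ on the strand of its gene, keeping the longest stretch before the RefSeq start site that lies outside annotated exons. Capitals mark CATTCC or its reverse complement GGAATG, searched on both strands. The stretches are chr6:83325909-83326015 on the plus strand for Mob1a, chr5:88720621-88720854 on the plus strand for Mob1b, chr9:8004597-8004829 on the minus strand for Yap1, chr3:57575911-57576160 on the minus strand for Wwtr1 and chr3:145649986-145650235 on the minus strand for Cyr61.
Mob1a: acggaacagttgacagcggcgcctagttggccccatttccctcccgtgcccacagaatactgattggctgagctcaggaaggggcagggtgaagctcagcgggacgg
Mob1b: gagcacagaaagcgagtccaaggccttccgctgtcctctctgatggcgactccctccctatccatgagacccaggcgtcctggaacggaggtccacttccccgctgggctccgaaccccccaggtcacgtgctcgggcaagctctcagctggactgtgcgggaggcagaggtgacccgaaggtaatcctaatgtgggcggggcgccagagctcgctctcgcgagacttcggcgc
Yap1: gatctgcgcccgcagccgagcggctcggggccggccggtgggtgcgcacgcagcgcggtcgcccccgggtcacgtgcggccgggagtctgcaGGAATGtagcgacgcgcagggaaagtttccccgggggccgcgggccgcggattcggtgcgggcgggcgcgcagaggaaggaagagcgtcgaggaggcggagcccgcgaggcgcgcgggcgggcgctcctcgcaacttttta
Wwtr1: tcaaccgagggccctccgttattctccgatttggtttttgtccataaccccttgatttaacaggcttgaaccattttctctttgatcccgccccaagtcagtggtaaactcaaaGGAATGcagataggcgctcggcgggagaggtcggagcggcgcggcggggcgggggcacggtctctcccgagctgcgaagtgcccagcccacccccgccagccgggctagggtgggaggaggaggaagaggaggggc
Cyr61: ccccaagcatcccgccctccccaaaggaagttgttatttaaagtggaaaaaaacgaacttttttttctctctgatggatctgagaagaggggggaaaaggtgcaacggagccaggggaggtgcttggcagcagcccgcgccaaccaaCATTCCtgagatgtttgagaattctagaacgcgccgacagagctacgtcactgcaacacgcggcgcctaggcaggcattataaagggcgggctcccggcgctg
The motif began 141 bases before the RefSeq start of Yap1, 136 bases before that of Wwtr1 and 103 bases before that of Cyr61. The stretch of Sav1, which is not printed, also holds it, 106 bases before the RefSeq start. In the whole window of 300 bases, 250 of them before the start, the motif was found in 5 of the 8 members with a window (Mob1a, Sav1, Lats2, Yap1 and Wwtr1), against 16.6% of all 27025 genes with a window. Counted by window, it was found in 6 of 10 windows of members, some of which have more than 1 start, and in 14.7% of all 32851 windows. The Mob1a match, at position -209 from its RefSeq start, lies outside the stretch printed above, within an exon of a Mthfd2 transcript on the opposite strand. The Lats2 match begins at position 4, after its RefSeq start. A match of these letters is a description of the sequence and not a measured binding site.

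MOB1A and MOB1B are closely related adaptors that bind and activate the LATS kinases. Mob1a (ENSMUSG00000043131, chromosome 6 from 83326016 to 83343776, GRCm38) had 6.06, 17.2, 10.6 and 9.88 FPKM in PND1 replicates 1 to 4. At PND4 it had 18.9, 60.9, 49.4 and 21.0 FPKM in replicates 1 to 4. Every PND4 library lay above every PND1 library, with PND4 replicates 2 and 3 well above the other PND4 libraries and with little room between 17.2 FPKM in PND1 replicate 2 and 18.9 FPKM in PND4 replicate 1. Mean FPKM was 10.9 ± 4.64 for PND1 and 37.5 ± 20.8 for PND4 (SD, n = 4). The log2 difference was 1.60 with a standard error of 0.39, a 3.03-fold difference on the log2(FPKM + 1) scale with a 95% interval of 1.66 to 5.53. Its unadjusted p was 0.00189, the 33rd smallest of 10756, and its adjusted p was 0.610 (limma). The exact two-sided permutation test over 70 assignments of libraries gave p = 0.0286, the smallest it can give with 4 libraries per age, and an adjusted p of 0.674 over all genes. Values without overlap and higher at PND4 were had by 3.16% of all genes tested, and among the members by Mob1a alone. With any single library left out the log2 difference stayed between 1.31 and 1.86. In the authors' deposited table Mob1a has a PND1 over PND4 fold of 0.366, with p = 0.0348 and q = 0.742.

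Mob1b (ENSMUSG00000006262, chromosome 5 from 88720855 to 88764220) did not show this separation. Its PND1 libraries read 5.35, 7.995, 8.77 and 8.33 FPKM and its PND4 libraries 10.9, 9.98, 1.64 and 7.91 FPKM. PND4 replicate 3 was the lowest of the 8 libraries for Mob1b while being the second highest for Mob1a. The log2 difference was -0.19 (95% interval -1.16 to 0.78, limma adjusted p = 0.951), and without PND4 replicate 3 it was 0.31. The interval spans 0.448-fold to 1.72-fold, so changes of up to that size in either direction were not resolved.

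The share of Mob1a in the summed FPKM of the adaptor pair does not depend on scaling between libraries. It was 53.1%, 68.3%, 54.7% and 54.2% in PND1 replicates 1 to 4, and 63.5%, 85.9%, 96.8% and 72.7% in PND4 replicates 1 to 4. Mob1a thus had the higher FPKM of the pair in 8 of 8 libraries. That ranking depends on the transcript lengths used for FPKM, which no source used here names. Annotated exonic bases number 4794 for Mob1a and 15033 for Mob1b. The ages overlapped in the Mob1a share only through PND1 replicate 2 and PND4 replicate 1. The summed FPKM of both adaptors was 18.6 ± 5.66 at PND1 and 45.2 ± 19.9 at PND4 (SD, n = 4), from 11.4 to 25.2 and from 28.9 to 70.8 FPKM, without overlap. The transcripts of the 2 genes share 0 stretches of 50 bases, and of 4891 such stretches in Mob1a transcripts 0 occur in transcripts of any other annotated gene on either strand.

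**Figure D1:**
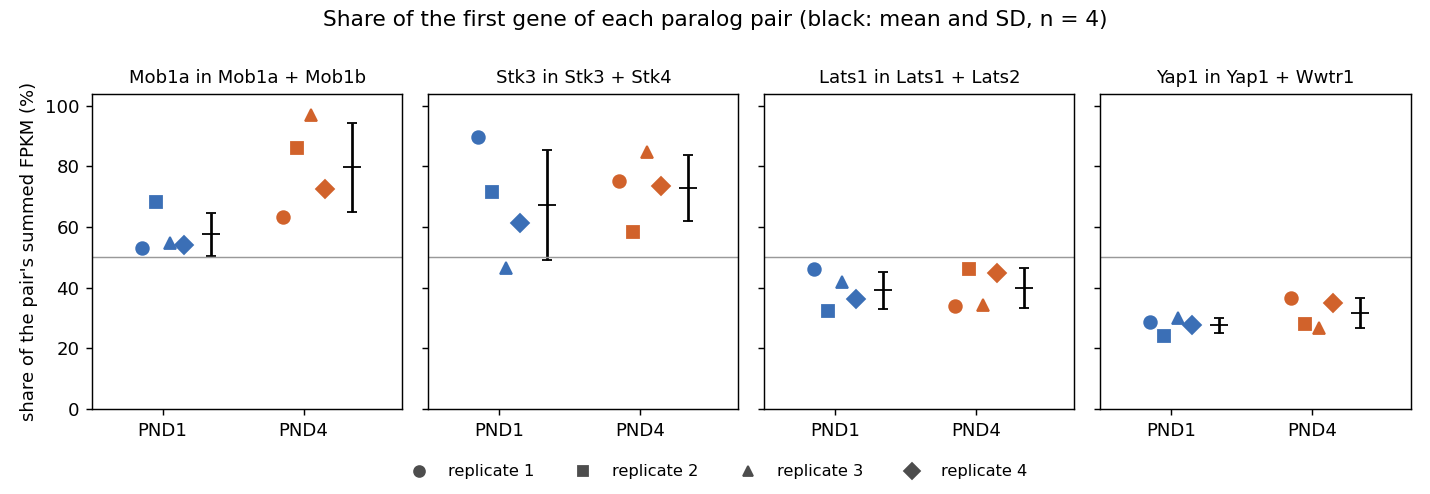
Each panel plots, for 1 paralog pair, the share (%) of the first gene in the pair's summed FPKM in each of the 4 PND1 (blue) and 4 PND4 (orange) libraries, with marker shapes for replicate numbers and the mean and SD in black; the grey line is at 50%. Mob1a shares ran from 53.1% to 68.3% at PND1 and from 63.5% to 96.8% at PND4, while the Yap1 share stayed under 50% in 8 of 8 libraries.

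Several measures differed between ages in the same libraries as Mob1a. Mthfd2, which encodes a mitochondrial folate enzyme, lies next to Mob1a on the opposite strand. Its main start is 8410 bases from that of Mob1a, and an alternative transcript starts 108 bases away. Mthfd2 had 28.3 to 42.4 FPKM at PND1 and 55.4 to 65.3 at PND4, also without overlap (log2 difference 0.84, limma unadjusted p = 0.000138, adjusted p = 0.296). In PND4 replicates 1 to 4 it had 57.2, 64.4, 55.4 and 65.3 FPKM, highest in replicate 4, while Mob1a was highest in replicate 2. Stroma markers (8 of 8 with a row) summed to 99.5 to 112 FPKM at PND1 and 128 to 161 at PND4. Among them decorin (Dcn), which defines that list, had 16.4 to 26.2 and 30.3 to 45.4 FPKM. Erythroid markers (3 of 6 with a row) summed to 17.1 to 48.9 FPKM at PND1 and 0.268 to 11.4 at PND4, and the globin gene Hbb-bs was listed at 0 in PND4 replicate 2, the library with the highest Mob1a. Oocyte markers (8 of 10 with a row) overlapped between ages, at 10.2 to 48.6 and 15.1 to 166 FPKM, with the highest sum in PND4 replicate 3. The sums of PND4 replicates 1, 2 and 4 (15.1, 37.2 and 33.2 FPKM) lay within the PND1 range, so the list as a whole was not raised in them. Zp3, for an egg coat protein and a defining marker of that list, read 1.49, 0.0804, 12.4 and 5.52 FPKM in PND1 replicates 1 to 4 and 12.7, 13.4, 61.3 and 10.9 FPKM in PND4 replicates 1 to 4. Its ages met only through PND1 replicate 3 and PND4 replicate 4 (log2 difference 2.32, limma unadjusted p = 0.00972, adjusted p = 0.740). The other defining marker, the oocyte growth factor gene Gdf9, ran from 0.489 to 3.19 FPKM at PND1 and from 1.07 to 16.4 at PND4 (log2 difference 1.27, adjusted p = 0.805). Sums also overlapped between ages for immune markers (4 of 8 with a row, without the defining Ptprc; 4.47 to 21.9 and 0.282 to 65.3 FPKM), surface epithelium markers (6 of 7; 103 to 352 and 190 to 431 FPKM) and smooth muscle markers (4 of 7, without the defining Myh11; 846 to 1537 and 680.2 to 1316 FPKM), and endothelial markers had a row for 0 of 7. Entries of the mitochondrial genome made up 28.9%, 30.6%, 26.6% and 29.9% of listed FPKM in PND1 replicates 1 to 4. At PND4 they made up 29.4%, 23.4%, 22.4% and 22.8% in replicates 1 to 4. Among PND4 libraries Mob1a was lowest in replicate 1, which had the highest share of that age. Among PND1 libraries it was highest in replicate 2, which also had the highest share of its age. Any link of the Mob1a difference to Mthfd2, to these cell types or to the mitochondrial share was not tested.

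**Figure D2:**
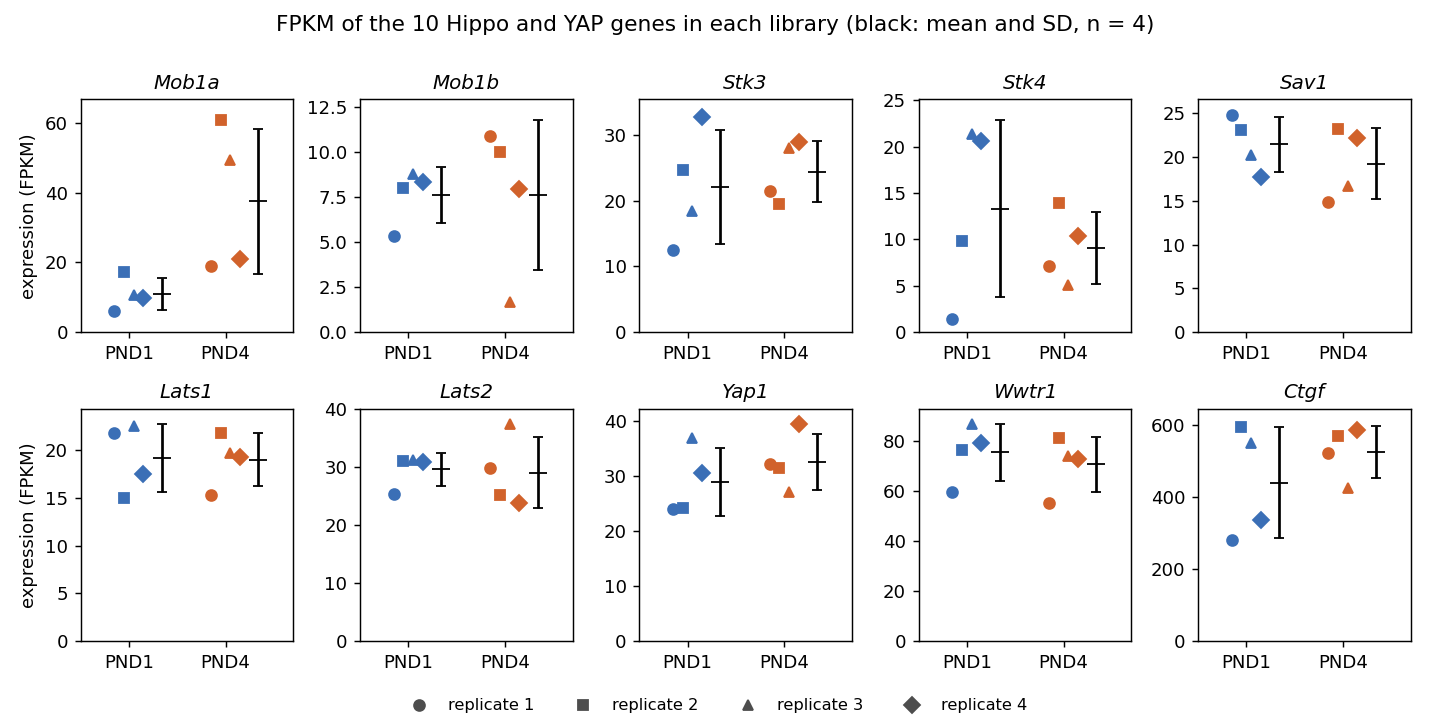
FPKM of each of the 10 genes in the 4 PND1 (blue) and 4 PND4 (orange) libraries, with marker shapes for replicate numbers and the mean and SD in black; each panel has its own axis from 0. Only in the Mob1a panel do the ages not overlap, with 6.06 to 17.2 FPKM at PND1 and 18.9 to 60.9 at PND4, and the Stk4 panel has the lowest value of any gene, 1.43 FPKM in PND1 replicate 1.

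The upstream kinases had no separation by age. Stk3 (ENSMUSG00000022329, chromosome 15 from 34875496 to 35178921), which encodes MST2, had 12.4, 24.7, 18.5 and 32.8 FPKM at PND1 and 21.4, 19.5, 28.1 and 28.9 FPKM at PND4. PND1 alone held both its lowest and its highest library. The log2 difference was 0.20 (95% interval -0.39 to 0.79, limma adjusted p = 0.906), and without PND1 replicate 1 it was -0.029. Stk4 (ENSMUSG00000018209, chromosome 2 from 164070322 to 164155524), which encodes MST1, had 1.43, 9.82, 21.4 and 20.6 FPKM at PND1 and 7.07, 14.0, 5.07 and 10.3 FPKM at PND4. It was the member with the widest spread, 14.9-fold between its lowest and highest library, both of them PND1 libraries. Its log2 difference was -0.15 (95% interval -1.52 to 1.21, adjusted p = 0.973) and took the opposite sign without PND1 replicate 3 (0.20), PND1 replicate 4 (0.19) or PND4 replicate 3 (0.064). Without PND1 replicate 1, its lowest library, the difference was -0.86 (limma, unadjusted p = 0.0380, adjusted p = 0.869). For Stk4 neither a 2.31-fold increase nor a fall to 0.350 of the PND1 level lies outside the interval. Stk3 made up 46.4% to 89.7% of the summed FPKM of this kinase pair at PND1 and 58.3% to 84.7% at PND4, and was the larger in 7 of 8 libraries.

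Sav1 (ENSMUSG00000021067, chromosome 12 from 69965012 to 69987002), the scaffold of these kinases, varied little. It had 24.8, 23.0, 20.2 and 17.7 FPKM at PND1 and 14.8, 23.2, 16.7 and 22.2 FPKM at PND4. The log2 difference was -0.16 (95% interval -0.59 to 0.26, limma adjusted p = 0.892). That value moved when single libraries were left out but stayed negative each time. It was -0.090 or -0.24 without PND1 replicate 1 or 4, and -0.050, -0.25 or -0.10 without PND4 replicate 1, 2 or 3. Sav1 shares 1336 of its 5265 exonic bases with Atl1 on the opposite strand, which had 3.69 to 6.98 FPKM over the 8 libraries. No source used here states strand-aware counting, so reads in the shared part cannot be assigned with certainty.

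The LATS kinases, which phosphorylate YAP1 and TAZ, had among the closest means of the members. Lats1 (ENSMUSG00000040021, chromosome 10 from 7681214 to 7716460) had 21.8, 15.0, 22.5 and 17.5 FPKM at PND1 and 15.3, 21.8, 19.7 and 19.2 FPKM at PND4. The ages covered nearly the same range, and the log2 difference was -0.0051 (95% interval -0.42 to 0.41, limma adjusted p = 0.996), which leaves folds from 0.747 to 1.33 unresolved. That sign turned without PND1 replicate 1 (0.059), PND1 replicate 3 (0.075) or PND4 replicate 1 (0.091). Lats2 (ENSMUSG00000021959, chromosome 14 from 57689662 to 57758388), which is also described as a YAP target, had 25.4, 31.1, 31.2 and 30.9 FPKM at PND1 and 29.9, 25.3, 37.5 and 23.8 FPKM at PND4. Its log2 difference was -0.042 (95% interval -0.42 to 0.33, adjusted p = 0.973), and turned without PND4 replicate 2 (0.016) or PND4 replicate 4 (0.045). Lats2 was the larger of the pair in 8 of 8 libraries, with Lats1 making up 39.2% ± 6.08 of the pair in PND1 and 39.8% ± 6.61 in PND4 libraries (SD, n = 4, shares of summed FPKM).

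The Lats2 value of PND4 replicate 4, its lowest, has a limit of its own. Lats2 shares 2955 of its 6971 exonic bases with Gm49361, annotated on the same strand. That entry was listed at 0 in 6 of 8 libraries, at 0.612 FPKM in PND4 replicate 2 and at 19.2 FPKM in PND4 replicate 4. The summed FPKM of both entries was 43.0 in PND4 replicate 4, the highest of the 8 libraries, where Lats2 alone was the lowest. No source used here states how shared reads were divided.

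The coactivators carry the output of the pathway into the nucleus, and their values overlapped between ages. Yap1 (ENSMUSG00000053110, chromosome 9 from 7931999 to 8004596) had 24.1, 24.3, 37.0 and 30.6 FPKM at PND1 and 32.2, 31.5, 27.2 and 39.5 FPKM at PND4. The log2 difference was 0.17 (95% interval -0.22 to 0.57, limma adjusted p = 0.874), a fold between 0.856 and 1.48. It was 0.29 when PND1 replicate 3 was left out, 0.094 and 0.097 when PND1 replicate 1 or 2 was, and 0.079 when PND4 replicate 4 was. Median-of-ratios and upper-quartile scaling gave 0.097 and 0.092. Wwtr1 (ENSMUSG00000027803, chromosome 3 from 57455649 to 57575910) had 59.7, 76.4, 86.8 and 79.4 FPKM at PND1 and 55.3, 81.2, 74.0 and 73.1 FPKM at PND4, with the lowest value of each age in replicate 1. Its log2 difference was -0.091 (95% interval -0.43 to 0.25, adjusted p = 0.933), the narrowest interval of the 10 genes, a fold between 0.740 and 1.19, and its sign turned without PND4 replicate 1 (0.021). Wwtr1 exceeded Yap1 in 8 of 8 libraries. Yap1 made up 28.8%, 24.1%, 29.9% and 27.8% of their summed FPKM at PND1 and 36.8%, 27.9%, 26.9% and 35.1% at PND4. The sum of both coactivators was 105 ± 16.8 FPKM in PND1 and 103 ± 11.9 in PND4 libraries (SD, n = 4).

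Ctgf (ENSMUSG00000019997, chromosome 10 from 24595442 to 24598683), the target gene of the set, was its most abundant transcript. Its PND1 libraries read 281, 593, 550.0 and 336 FPKM and its PND4 libraries 522, 569, 424 and 586 FPKM. The PND1 libraries fell into a low pair (replicates 1 and 4) and a high pair (replicates 2 and 3), and the 4 PND4 libraries lay within the PND1 range. The means were 440.0 ± 154 and 525 ± 72.7 FPKM (SD, n = 4), and the log2 difference was 0.31 (95% interval -0.18 to 0.81, limma unadjusted p = 0.187, adjusted p = 0.835). Leaving out a low PND1 library lowered this difference (0.12 for replicate 1, 0.21 for replicate 4), and leaving out PND1 replicate 2 raised it to 0.48. Ctgf shares 665 of its 2861 exonic bases with Gm15270 on the opposite strand, which had 101, 297, 258 and 142 FPKM at PND1 and 253, 264, 228 and 290 FPKM at PND4. Gm15270 was lowest and highest in the same libraries as Ctgf and stood at 35.9% to 53.7% of its value. Without knowledge of strand, reads in the part that these 2 entries share cannot be assigned with certainty.

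**Figure D3:**
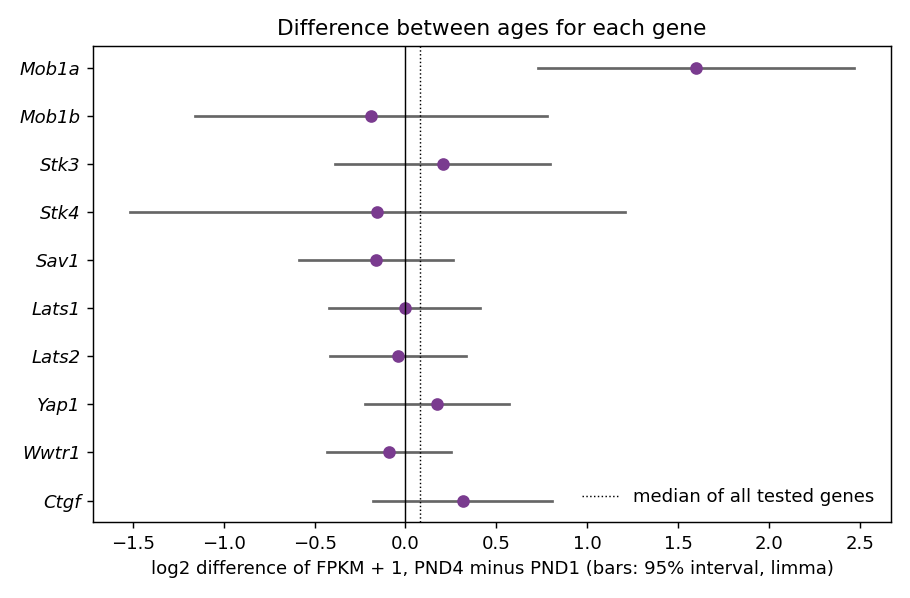
Points give the log2 difference of FPKM + 1 (PND4 minus PND1) of each of the 10 genes and bars its 95% interval from limma; the solid line is at 0 and the dotted line at the median of all genes tested, 0.078. Mob1a, at 1.60, has the only interval that does not include 0, and those of Stk4 and Mob1b are the widest.

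Over all 8 libraries the order of mean levels was Ctgf (483 FPKM), Wwtr1 (73.2), Yap1 (30.8), Lats2 (29.4), Mob1a (24.2), Stk3 (23.3), Sav1 (20.4), Lats1 (19.1), Stk4 (11.2) and Mob1b (7.61). Ctgf exceeded Wwtr1, and Wwtr1 exceeded Yap1, in 8 of 8 libraries without overlap. The place of Mob1a in this pooled order held at neither age, since by mean level it was the ninth at PND1 (10.9 FPKM, under the 13.3 of Stk4) and the third at PND4 (37.5 FPKM, over the 32.6 of Yap1). From Yap1 downward the ranges of neighbours overlapped, and Yap1 exceeded Lats2 in 4 of 8 libraries. Of the 10 genes, 9 had a mean level above the median of listed genes, 8.35 FPKM, and the remaining member was Mob1b. The coefficient of variation over the 8 libraries ran from 14.6% for Wwtr1 to 63.3% for Stk4 and 82.2% for Mob1a. PND1 replicate 1 held the lowest value of 5 members (Mob1a, Stk3, Stk4, Yap1 and Ctgf) and was the library with the most entries at 0. The part of that library's quality in those values was not tested, and the Mob1a difference without it was 1.37.

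The rest of the pathway was followed in 4 lists of other genes, 100 symbols of which 82 had a row and 78 were tested. Adjusted p-values under 0.05 were had by 0 of these 78 genes. Their median log2 difference was 0.078, equal to that of all genes to this precision, and 48 were higher and 30 lower. An unadjusted p under 0.05 was had by 2.56% of them, against 5.90% of all genes. These were 2 upstream genes, Rhoa and Ajuba, and the second of them was named after its values were seen. That count depended on the setting, running from 0 to 5 of 78 over the alternatives. It was 4 of 78 (5.13%) with median-of-ratios scaling, against 5.26% of all genes, and 5 of 78 (6.41%) with upper-quartile scaling, against 5.04%. At this level both scalings had Ajuba, Slmap, Axl and Ankrd1 and not Rhoa, and the second also had Tead2.

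The upstream regulators feed into the kinases from the cytoskeleton, cell contacts and phosphatase complexes. Of 29 tested, 18 were higher and 11 lower, with a median log2 difference of 0.068. Rhoa, a small GTPase of the actin cytoskeleton whose activity favours nuclear YAP1, had 212 ± 25.5 FPKM in PND1 and 254 ± 18.7 in PND4 libraries (SD, n = 4; log2 difference 0.26, limma unadjusted p = 0.0397, adjusted p = 0.805). The unadjusted p of Rhoa was 0.141 and 0.139 with the scalings just named, 0.137 with a constant prior variance and 0.104 without PND1 replicate 1. The LIM protein gene Ajuba, whose product binds and restrains LATS kinases, had 45.8, 61.3, 54.9 and 46.3 FPKM at PND1 and 30.1, 57.1, 31.0 and 34.7 FPKM at PND4. PND4 replicate 2 alone brought the Ajuba values of the ages into overlap (log2 difference -0.47, unadjusted p = 0.0397, adjusted p = 0.805). The phosphatase subunit genes Ppp2r1a and Ppp2ca had log2 differences of 0.022 and 0.12. Slmap, a subunit of the phosphatase complex that acts on STK3 and STK4, had 10.9 to 11.9 FPKM at PND1 and 7.51 to 9.07 at PND4 without overlap (log2 difference -0.37, adjusted p = 0.805), and it was named after its values were seen. Its unadjusted limma p was 0.0775, and 0.0411 and 0.0375 under the scalings.

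Junction and angiomotin proteins hold YAP1 at cell contacts or, as 14-3-3 proteins, in the cytoplasm. Of 23 tested, 16 were higher and 7 lower, with a median log2 difference of 0.12. An unadjusted p under 0.05 was had by 0 of 23, against 5.90% of all genes. The 14-3-3 genes Ywhae, Ywhaz and Ywhah were the most abundant of the list. Ywhae had 447 to 470.4 FPKM at PND1 and 481 to 516 at PND4, a small separation without overlap (log2 difference 0.13, limma adjusted p = 0.812). Ywhaz and Ywhah had log2 differences of 0.052 and 0.087.

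The TEAD factors are the DNA-binding partners through which YAP1 and TAZ act. Of 6 genes tested in this list, 3 were higher and 3 lower, with a median log2 difference of -0.038. Tead2 was the most abundant, with 53.7, 45.5, 42.2 and 37.5 FPKM at PND1 and 40.9, 36.2, 31.5 and 39.3 FPKM at PND4 (log2 difference -0.26, limma adjusted p = 0.805). The ages overlapped for Tead2, with PND1 replicate 4 among the PND4 values. The cofactor gene Vgll3, whose product binds TEAD factors, had 17.0 ± 4.84 and 23.7 ± 3.31 FPKM (SD, n = 4; log2 difference 0.48, adjusted p = 0.805). Tead1 had 10.6 ± 4.19 and 11.4 ± 9.995 FPKM, with 26.0 FPKM in PND4 replicate 4. Its log2 difference was -0.14 (adjusted p = 0.970), opposite in sign to the difference of the means.

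The published YAP and TEAD target genes, without the members (such as Ctgf and Lats2) and genes already in the lists above, had differences of both signs. Of 20 tested, 11 were higher and 9 lower, with a median log2 difference of 0.079 and log2 differences from -0.45 (Areg) to 0.46 (Tgfb2). An unadjusted p under 0.05 was had by 0 of 20 as fitted, against 5.90% of all genes. With median-of-ratios or upper-quartile scaling it was had by 2 of 20 (10%), Axl and Ankrd1. The shares of all genes were then 5.26% and 5.04%. Cyr61, whose promoter stretch is printed above, had 523, 748, 699.8 and 575 FPKM at PND1 and 676, 786, 587 and 657 FPKM at PND4. Its PND1 libraries fell into the same low and high pairs as those of Ctgf, and its log2 difference was 0.095 (95% interval -0.20 to 0.39, limma adjusted p = 0.913). The receptor tyrosine kinase gene Axl had 565 to 598 FPKM at PND1 and 443 to 538 at PND4, lower at PND4 without overlap (log2 difference -0.20, limma unadjusted p = 0.0550, adjusted p = 0.805). Its unadjusted p under those scalings was 0.0248 and 0.00964. Ankrd1, for a nuclear ankyrin-repeat protein, had 262 ± 28.2 and 213 ± 48.6 FPKM (SD, n = 4; log2 difference -0.32, limma unadjusted p = 0.0708, adjusted p = 0.805), and its unadjusted p was 0.0456 and 0.0296 with the scalings. Thus of the most abundant targets, as fitted, Ctgf and Cyr61 had positive and Axl and Ankrd1 negative differences, and 0 of these 4 passed the test. The Cyr61 difference lay near the median of all genes, 0.078. It was 0.017 and 0.013 under the scalings, and 0.0059 without PND1 replicate 1. That of Ctgf was 0.24 and 0.23 under the scalings. Values without overlap and lower at PND4 were had by 1.08% of all genes tested, and over the 4 lists by 2 of 78 genes, Slmap and Axl, with 1 of 78, Ywhae, higher without overlap.

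**Figure D4:**
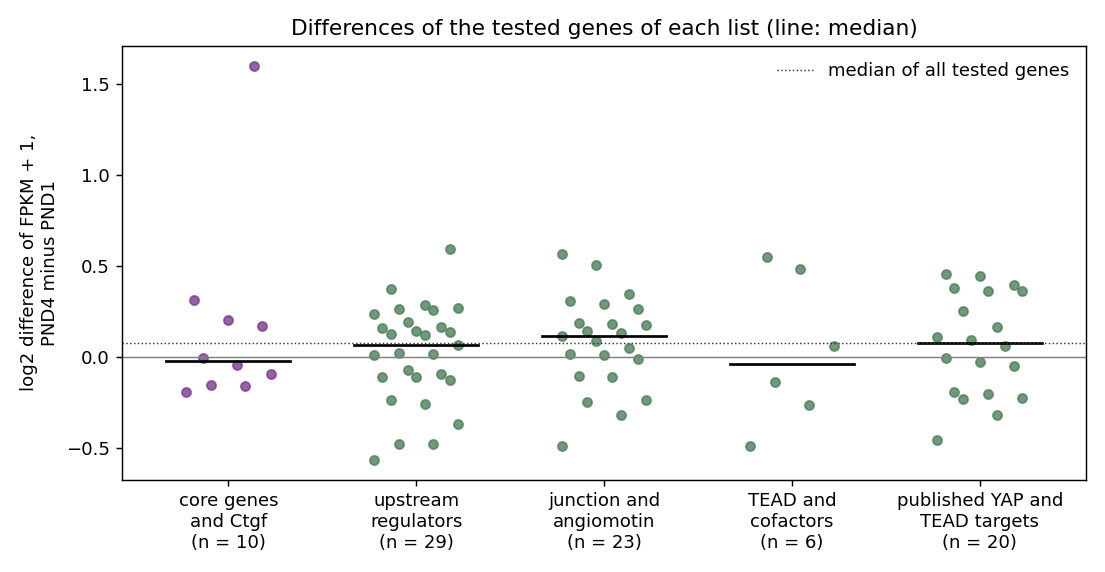
Each point is the log2 difference of FPKM + 1 (PND4 minus PND1) of 1 tested gene, by list, with the list's median as a black line, 0 as a grey line and the median of all tested genes as a dotted line. List medians lie between -0.038 and 0.12, and Mob1a, at 1.60, stands above every other point, the next highest being 0.59 for Wwc1.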

How the data were processed

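RNA-seq covered granulosa cells of mice at postnatal day 1 or 4, with 4 libraries per age. The submitters' processing notes name Trim Galore and HISAT2, without versions or roles, and the build GRCm38. The authors deposited 1 filtered table of FPKM values for 11783 genes, per the file headers; the quantifier, annotation, strand use and filter are named in no source used here. A second deposited table by the authors holds a fold (ratio of PND1 over PND4), the log2 of that ratio, p-values and q-values, from a test that no source used here names.

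The filter kept 10756 of 11783 genes, those reaching 1 FPKM in 4 or more libraries. Values were taken as log2(FPKM + 1), which understates the fold of low genes, and the ages were compared with limma 3.58.1 (R 4.3.3) (trend option, age as the only term), adjusted by Benjamini-Hochberg over all genes with a threshold of 0.05. In simulated data for these 10756 genes, with 200 changed in each of 10 simulations, 6.57% of 1.5-fold, 29.7% of 2-fold and 70.2% of 4-fold changes were recovered. Positions, overlaps and shared stretches of 50 bases come from GENCODE M21. The members, the gene lists, the rule for naming genes (the members and the 3 most abundant genes of each other list) and the alternatives were chosen with earlier results of these data known. Figures were drawn with matplotlib 3.10.9.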

Additional observations from a re-analysis of the deposited data

Results flagged for a closer look

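In PND1 replicate 1 Lats2 had 25.4 FPKM, apart from 30.9 to 31.2 FPKM in the other 3 PND1 libraries. The gap to the nearest of them was 0.943 of the range of the 4 values, above Dixon's 95% critical value for 4 values. This was the single such case among 20 sets of 4 libraries (10 genes at 2 ages), and chance gives about 1 in 20.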

How the results depend on the processing

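Across 18 alternatives (scaling, pseudocount, filter, prior variance, exact permutation, replicate block, each library left out, and, chosen after seeing the data, both libraries numbered 1 left out) 0 members and 0 other pathway genes passed. The number of genes called over the whole table was 1, and 0 with the stricter filter and with the exact permutation, whose fewer tested genes and coarse p-values are part of their construction. Mob1a stayed positive in 18 of 18, with log2 differences from 1.31 to 1.86 and adjusted p-values from 0.363 to 0.887. The labels name no pairing by replicate number. Correlations of deviations between same-numbered libraries ran from -0.0088 to 0.12, and only the libraries numbered 4 correlated best with their own number. So few values cannot decide whether libraries were paired. The libraries numbered 1 shared the most entries at 0 (1234 at PND1 and 1097 at PND4). With the replicate block the Mob1a difference was 1.60 (limma, unadjusted p = 8.51e-05, adjusted p = 0.363), and 1 gene was called over the whole table. Ctgf and Yap1 also kept their sign, though Yap1 moved between 0.079 and 0.29 with single libraries left out. Leaving out single libraries moved Sav1 between -0.25 and -0.050, Mob1b between -0.41 and 0.31, Stk3 between -0.029 and 0.41, Stk4 between -0.86 and 0.20, Lats1 between -0.11 and 0.091, Lats2 between -0.17 and 0.045, Wwtr1 between -0.20 and 0.021, Tead1 between -0.61 and 0.20 and Ppp2r1a between -0.041 and 0.056. Without both libraries numbered 1, Sav1 turned to 0.020, Lats1 to 0.15 and Tead1 to 0.048. With median-of-ratios and upper-quartile scaling Ppp2r1a turned to -0.056 and -0.060 and Ywhaz to -0.026 and -0.031, and the median of all genes fell from 0.078 to 0.0089 and 0.0047. The cause of these turns was not tested. Read depth is unknown, so counting error could not be separated from the spread between libraries.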
